A study of Mus musculus with 4 samples.

Results

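In liver of Mertk knockout mice with a ligated bile duct, called nuclei fell into a group with little RNA and a group with more, and the groups are described here by what both of their readouts hold. Members are the 5339 barcodes that the authors called nuclei in the knockout library, of 11167 called in the whole series. They were chosen by the authors' call and divided by the measured number of unique molecular identifiers (UMIs, tags that count captured RNA molecules), at 1000. Under 1000 UMIs lay 2450 nuclei, called low-RNA nuclei below, and 2889 high-RNA nuclei had 1000 or more. The limit uses the RNA count itself, so every RNA difference between the groups describes how they were chosen. With 1 knockout library there is no replicate, nuclei are not replicates, and no test was possible.

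The study compared wild-type and Mertk knockout livers, both after bile duct ligation, a surgical block of bile flow that leads to cholestasis and fibrosis. Both genotypes carry the ligation, and unligated liver was not analysed here. Mertk encodes a receptor tyrosine kinase with which macrophages take up dying cells. Nuclei of frozen tissue went through the 10x Genomics Multiome assay, which gives RNA and accessible DNA of each nucleus under paired barcodes, in 1 RNA and 1 ATAC library per genotype. The labels describe neither the knockout allele nor the number, sex or age of the animals, nor the time after ligation.

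A nucleus holds much unspliced RNA, so its UMIs come from introns as well as exons, whereas RNA of the cytoplasm is mostly spliced. In the ATAC channel a transposase cuts open DNA, and nuclei with intact chromatin give many fragments at transcription start sites and in peaks. Mitochondrial DNA carries no nucleosomes and is cut readily, so mitochondrial reads show mitochondria or their DNA that came along with a nucleus or droplet. Liver nuclei differ by nature in content: many hepatocytes are polyploid, and lymphocytes and neutrophils have small nuclei. The cell type of a nucleus could not be read here, because no matrix of genes by nuclei was used.

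The tissue label was checked against the knockout peak annotation, which pools all nuclei. All 8 hepatocyte markers (Alb, Apoa1, Apob, Ttr, Hnf4a, Cps1, Cyp3a11 and Serpina1a) and all 4 endothelial markers had a promoter peak. So did 4 of 5 stellate cell, 2 of 4 cholangiocyte, 2 of 4 Kupffer cell and 3 of 4 neutrophil markers. None of the 4 T cell or 3 B cell markers had one, nor did the 3 neuronal markers, while 1 of 3 cardiomyocyte markers, Tnnt2, did. Mertk had a promoter peak, which checks nothing about the allele. Of the called barcodes, 44 were also called in the wild-type library. Low-RNA nuclei in the knockout library were 21 of these 44, beside 2450 of all 5339 members (45.9%). Whether 44 is more than barcodes drawn at random would share was not tested.

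The low-RNA nuclei made up 45.9% of the knockout nuclei (exact 95% interval 44.5% to 47.2%, which like all intervals here covers counting error only). UMIs ranged from 69 to 999 among them, with a median of 460 and quartiles of 340 and 631. High-RNA nuclei ranged from 1000 to 48609, with a median of 2593 and quartiles of 1743 and 3953. On a histogram with bins of 0.1 log10 units, the knockout library had 2 maxima. The lower lay at 398 to 501 UMIs with 490 nuclei and the upper at 2512 to 3162 UMIs with 444 nuclei, and the lowest bin between them, at 1000 to 1259 UMIs, still held 242. The wild-type library had 1 maximum, at 3162 to 3981 UMIs, and 6.40% of its nuclei (373 of 5828, interval 5.79% to 7.06%) lay under 1000 UMIs. The libraries differed in depth and yield. Called wild-type nuclei held 155949211 RNA reads and 31798452 UMIs, and called knockout nuclei 105212633 and 11083766. Raw reads per UMI had medians of 4.89 and 10.5, so shares under 1 fixed limit are not like for like between the libraries.

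**Figure D1:**
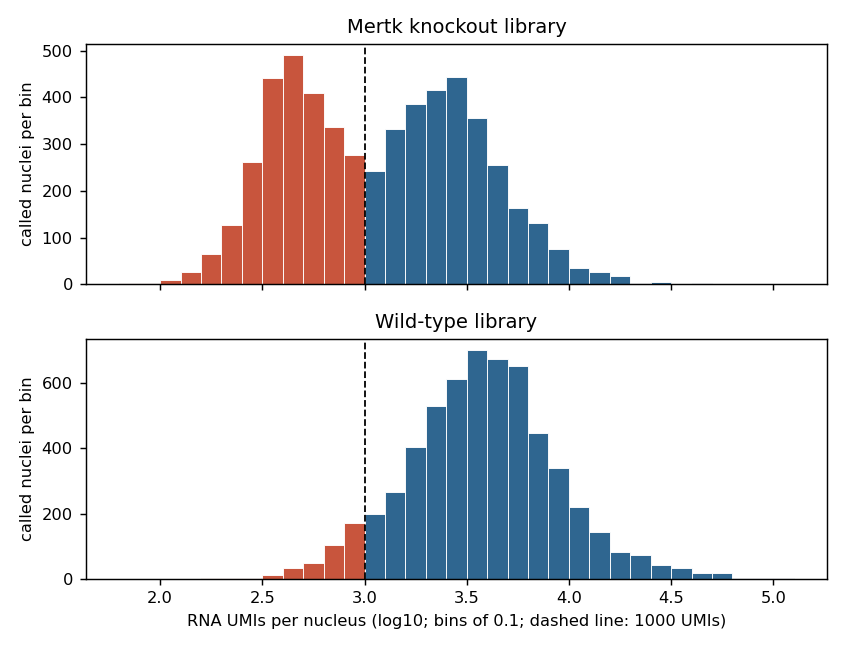
Called nuclei per bin of 0.1 log10 units of RNA UMIs in the knockout (top) and wild-type (bottom) library; red bars are under 1000 UMIs, blue bars at or above. The knockout library has maxima at 398 to 501 and 2512 to 3162 UMIs, the wild-type library 1 at 3162 to 3981.

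At the limit itself the nuclei on either side had nearly the same fragments, intronic and mitochondrial shares. Just inside it, at 900 to 999 UMIs, 124 nuclei had a median of 11060.5 ATAC fragments, 41.3% intronic UMIs and 2.72% mitochondrial ATAC reads. Just outside, at 1000 to 1099 UMIs, 118 nuclei had 11060 fragments, 41.8% and 2.70%. Fragments in peaks were 44.5% inside and 48.4% outside, fragments at start sites 31.8% and 33.6%, and intergenic reads among mapped RNA reads 45.1% and 41.6%.

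Of what all called knockout nuclei held together, low-RNA nuclei had a small part of the RNA and a larger part of the ATAC fragments. They held 1215244 of 11083766 UMIs (11.0%) but 17664290 of 83996145 ATAC fragments (21.0%) and 27.4% of the mitochondrial ATAC reads. Their part of the RNA-library reads in called nuclei was 15.4%. Per nucleus, the median UMI count was 5.64-fold higher in the high-RNA group, and the median number of ATAC fragments 2.41-fold higher.

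Genes followed the UMIs. The low-RNA nuclei had a median of 315 detected genes (quartiles 237 and 416, range 50 to 724), against 1355 in high-RNA nuclei (979 and 1843, range 250 to 8012). Per UMI, the low-RNA nuclei had more genes, 0.70 against 0.51, and this ratio went down with depth, from 0.72 at 250 to 499 UMIs to 0.33 at 8000 or more. Without counts per gene the nuclei could not be brought to 1 depth, so these gene numbers are not compared beyond their UMIs.

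Exonic and intronic UMIs were both low in the low-RNA nuclei, intronic ones somewhat more. Exonic UMIs had medians of 268 and 1376, a 5.13-fold difference, and intronic UMIs 183 and 1211, 6.62-fold. The intronic share of UMIs was 40.8% in low-RNA nuclei (quartiles 35.3% and 45.4%) and 47.03% in high-RNA nuclei (43.0% and 50.6%), so the groups overlap and their medians lie 6.22 percentage points apart. An intronic share under 20% was rare in both, at 54 low-RNA (2.20%, interval 1.66% to 2.87%) and 18 high-RNA nuclei (0.623%, interval 0.370% to 0.983%). By bands of UMIs the median share went up from 36.04% under 250 UMIs to 42.1% at 500 to 749, was 41.6% at 750 to 999 and reached 49.8% at 4000 to 7999, with 47.7% at 8000 or more. Counted over all confidently mapped exonic and intronic reads, antisense ones included, the gap was 2.43 percentage points, 50.4% against 52.8%. Over sense reads alone it was 5.71 points. Of the intronic reads of the median low-RNA nucleus 30.9% were antisense, against 16.8% in high-RNA nuclei.

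The reads of the RNA library were also laid out differently. Of all RNA-library reads in low-RNA nuclei, 38.2% were intergenic, 14.8% exonic sense and 11.0% intronic sense. In high-RNA nuclei intergenic reads were 24.9%, exonic sense reads 20.1% and intronic sense reads 19.3%. Unmapped reads were alike, at 21.1% and 22.1%. Per nucleus, the intergenic share of mapped reads had a median of 47.3% (quartiles 41.3% and 52.8%) against 29.6% (22.9% and 37.5%), so the quartile ranges did not overlap. Antisense reads made up 18.7% and 11.0% of reads in genes.

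**Figure D2:**
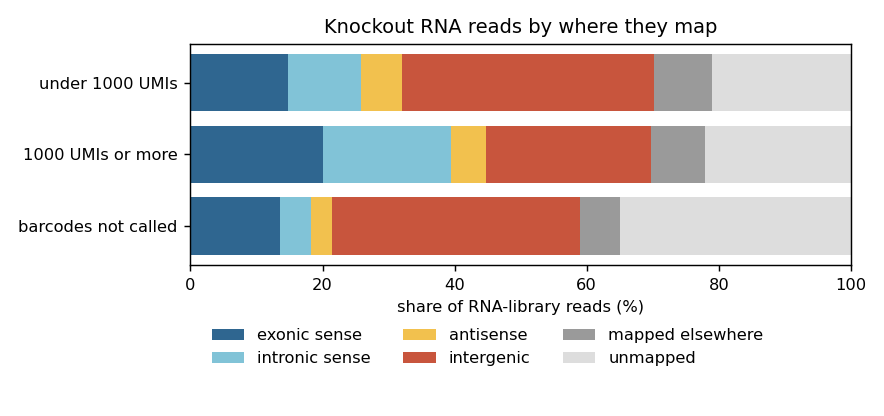
Share of RNA-library reads (%) by where they mapped, summed over low-RNA nuclei, high-RNA nuclei and barcodes not called nuclei of the knockout library. Intergenic reads take 38.2%, 24.9% and 37.6%, and intronic sense reads 11.0%, 19.3% and 4.76%.

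Between the groups, intergenic reads differed by about as much as ATAC fragments and by less than UMIs. The limit was set on UMIs, so the larger difference in UMIs follows in part from how the groups were chosen. Intergenic reads were also counted as reads rather than UMIs, and all RNA-library reads differed 3.90-fold at the median. A low-RNA nucleus had a median of 2111 intergenic reads and a high-RNA nucleus 5158, a 2.44-fold difference, close to the 2.41-fold difference in fragments. Per 1000 ATAC fragments, the low-RNA nuclei had 360.3 intergenic reads and the high-RNA nuclei 333.7, while UMIs per 1000 fragments were 73.8 and 183.5. Within the groups the order was the other way: Spearman's rho of intergenic reads with fragments was 0.23 over the low-RNA and 0.40 over the high-RNA nuclei, and with UMIs 0.65 and 0.53. Nuclei of 1 library share its depth, so these coefficients are descriptions.

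Reads were spent on fewer UMIs in the low-RNA nuclei. A UMI cost a median of 12.9 raw reads there and 8.32 in high-RNA nuclei. Reads assigned to a transcript were 1.83 and 1.70 per UMI, so the groups differed by less in these reads.

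In the ATAC channel, which the limit did not use directly, low-RNA nuclei had 5957.5 fragments at the median (quartiles 3237.75 and 9150.5, range 524 to 65712). High-RNA nuclei had 14334 (7065 and 25992, range 115 to 687724). The groups overlap widely: 27.96% of low-RNA nuclei (685 of 2450, interval 26.2% to 29.8%) lay above the library's median of fragments, as did 68.7% of high-RNA nuclei (1984 of 2889, interval 66.9% to 70.4%). Duplicates made up 30.8% and 31.5% of ATAC reads in the low-RNA and high-RNA nuclei.

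**Figure D3:**
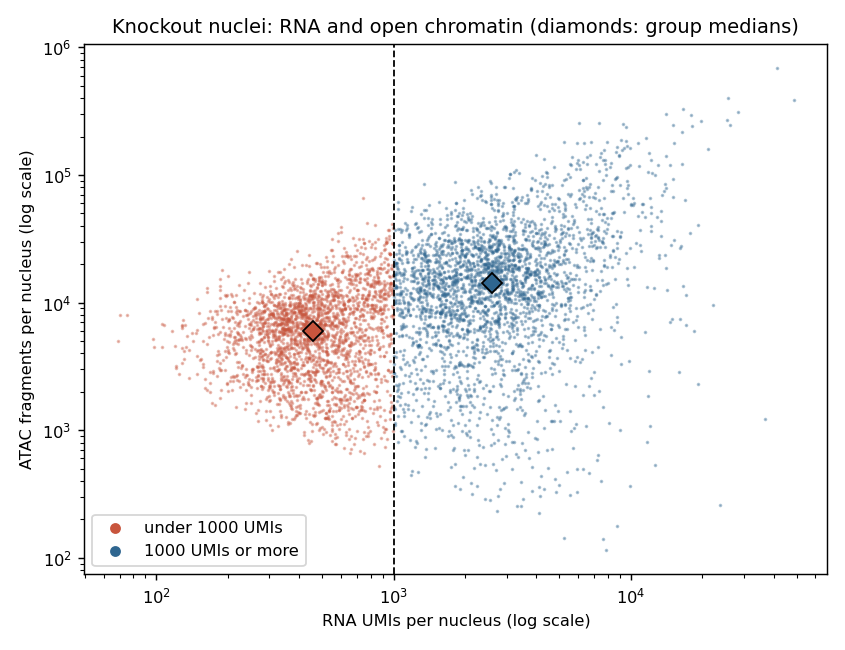
RNA UMIs (x) and ATAC fragments (y) of each called knockout nucleus, both on log scales, red under and blue at or above 1000 UMIs; diamonds are the group medians (460 UMIs and 5957.5 fragments, 2593 UMIs and 14334 fragments). The lower edge of the cloud slopes down to the right, so nuclei with few UMIs are present only with more fragments.

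RNA and ATAC content went together over all 5339 nuclei, with a Spearman rho of 0.46, and less within each group, at 0.15 over low-RNA and 0.26 over high-RNA nuclei. A limit on UMIs narrows their range in each group, which by itself lowers such a coefficient. Median fragments hardly moved with UMIs at the low end, at 5294 under 250 UMIs, 5840.5 at 250 to 499 and 5630 at 500 to 749. They were 9212 at 750 to 999 UMIs, 14369 at 2000 to 3999, 19563.5 at 4000 to 7999 and 46623 at 8000 or more. Seen from the ATAC side, the share of low-RNA nuclei was 54.9% in the decile of nuclei with the fewest fragments (115 to 2021), 72.5% in the third decile (3472 to 5212), 54.8% in the sixth decile (8774 to 11350) and 2.43% in the highest (31820 to 687724; 13 of 534, interval 1.30% to 4.13%).

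**Figure D4:**
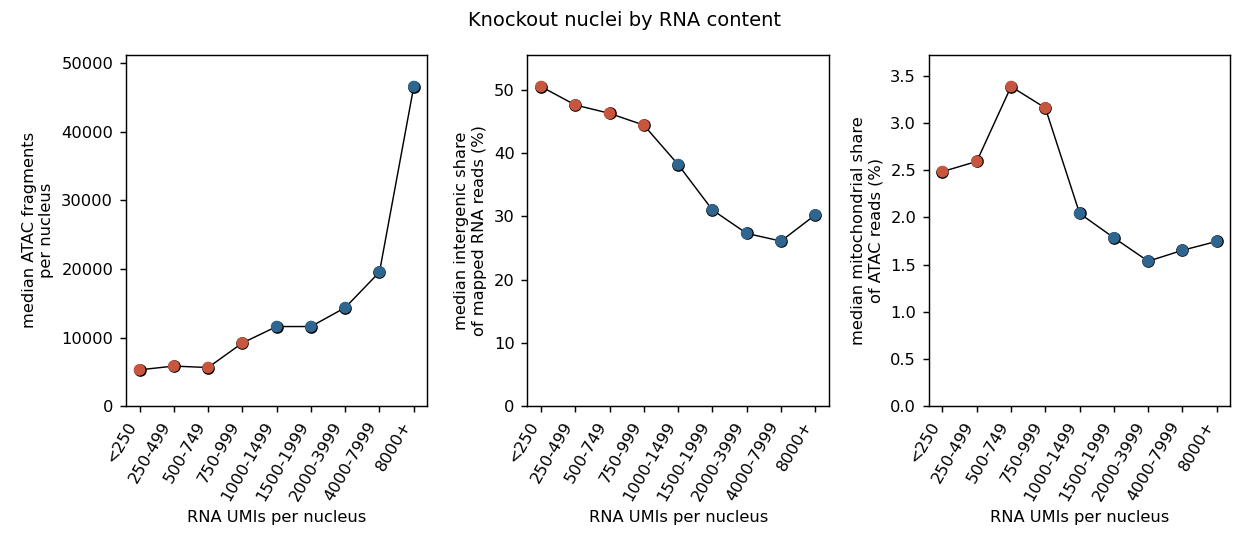
Median ATAC fragments, intergenic share of mapped RNA reads (%) and mitochondrial share of ATAC reads (%) of knockout nuclei in 9 bands of RNA UMIs (red under 1000, blue at or above). Fragments stay near 5294 to 5840.5 up to 749 UMIs and reach 46623 in the last band, and the mitochondrial share is highest, 3.39%, at 500 to 749 UMIs.

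Which nuclei were called bears on this relation. The fewest cut sites in peaks among called nuclei were 1516 under 250 UMIs, 850 at 250 to 499, 603 at 750 to 999, 324 at 1500 to 1999 and 120 at 4000 to 7999. A droplet with few UMIs was therefore present among the members only with more ATAC signal. Of barcodes with at least 3000 cut sites in peaks, 4325 were called and 48 were not, 44 of these with an exclusion code. Among those 4325 nuclei 41.9% were low-RNA, their median fragments were 0.451 of those of high-RNA nuclei (0.416 over all called nuclei), and rho was 0.56.

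Chromatin measures of the low-RNA nuclei as 1 group were like those of high-RNA nuclei or higher at the median, but not in each band of UMIs. Fragments at transcription start sites were 36.9% (quartiles 32.4% and 39.98%) against 33.6% (30.6% and 35.8%), 3.26 percentage points higher. Fragments in peaks were 52.5% (44.4% and 59.2%) against 51.1% (44.3% and 55.5%), 1.39 points higher, with a wider spread in the low-RNA nuclei. Peaks were called on this library as a whole, in which high-RNA nuclei supplied most fragments. By bands of UMIs, medians at start sites and in peaks were 36.4% and 49.3% under 250 UMIs and 38.4% and 55.04% at 250 to 499. They were 36.3% and 51.6% at 500 to 749 and 32.9% and 46.4% at 750 to 999. At 1000 to 1499 UMIs they were 33.1% and 49.3%, so the highest low-RNA band lay below the lowest high-RNA band. A peak share under 40% was found in 464 low-RNA (18.9%, interval 17.4% to 20.5%) and 437 high-RNA nuclei (15.1%, interval 13.8% to 16.5%).

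The direction of both chromatin differences changed with the number of fragments. In decile 3, low-RNA nuclei had 38.7% of fragments at start sites and 56.1% in peaks, high-RNA nuclei 34.7% and 54.3%. At start sites the low-RNA median was higher in deciles 1 to 6 and 10. In peaks it was higher only in deciles 2, 3 and 10. In deciles 1, 4 and 5 the peak medians were nearly equal, at 53.3% against 53.7%, 54.5% against 54.9% and 54.24% against 54.26%. In decile 6 they were 51.2% against 54.7%, and in decile 7 they were 47.5% against 53.3%. In the eighth decile (14909 to 20381 fragments), 119 low-RNA nuclei had 30.2% and 42.0%, and high-RNA nuclei 34.04% and 52.4%. In the ninth (20392 to 31796), 69 low-RNA nuclei had 25.6% and 35.04%, and high-RNA nuclei 32.3% and 48.7%. Shares of high-RNA nuclei also went down at the top, to 30.7% and 43.7% in the highest decile, where the 13 low-RNA nuclei had 32.8% and 47.9%. Averaged over the 10 deciles, the difference at start sites was 0.77 points and that in peaks was -2.70, the opposite of the unmatched value. Without the highest decile, which held 13 low-RNA nuclei, these were 0.62 and -3.47.

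Mitochondrial reads took a larger share of the ATAC reads of low-RNA nuclei, with a median of 2.80% (quartiles 1.67% and 5.04%) against 1.69% (1.04% and 2.97%). In number they were fewer, 312 against 464 per nucleus. A share over 5% was found in 616 low-RNA (25.1%, interval 23.4% to 26.9%) and 392 high-RNA nuclei (13.6%, interval 12.3% to 14.9%). The gap was widest where fragments were few. In the second decile (2023 to 3469 fragments) low-RNA nuclei had 4.64% and high-RNA nuclei 1.72%, and in the ninth decile 1.80% and 1.72%. Averaged over the deciles, the difference was 0.96 points, against 1.11 unmatched. By UMIs the share was not highest at the bottom: it was 2.48% under 250 UMIs, 3.39% at 500 to 749 and 1.54% at 2000 to 3999.

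**Figure D5:**
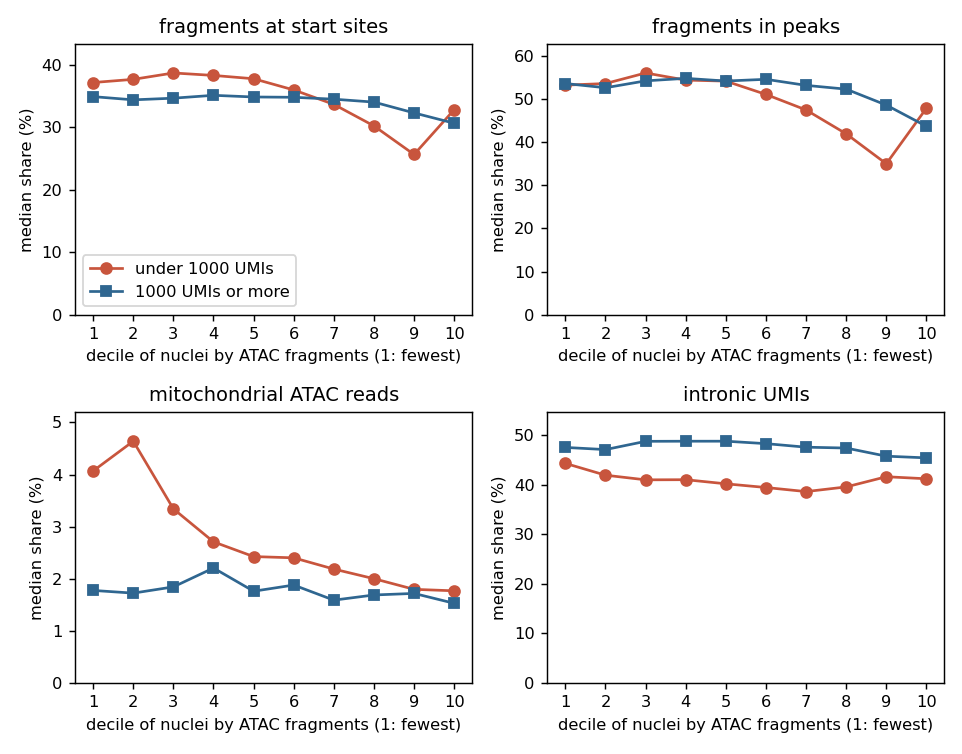
Median shares (%) in low-RNA (red) and high-RNA (blue) knockout nuclei within deciles of nuclei by ATAC fragments, for fragments at start sites, fragments in peaks, mitochondrial ATAC reads and intronic UMIs. The red line for peaks drops to 35.04% in the ninth decile, and that for mitochondrial reads starts at 4.07% and ends at 1.77%.

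The intronic share differed in the same direction in every decile of fragments, from 44.3% against 47.5% in the lowest to 38.6% against 47.6% in the seventh. Nuclei with a higher share of fragments in peaks also had a higher intronic share of UMIs, measures that come from different channels, with rho of 0.33 over low-RNA and 0.45 over high-RNA nuclei. Nuclei with a higher mitochondrial share of ATAC reads had a lower intronic share, with rho of -0.23 and -0.37.

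Low-RNA nuclei were also set beside barcodes of the same library that were not called nuclei. Over all such barcodes, 23.1% of UMIs were intronic, 27.6% of fragments lay in peaks, 21.1% at start sites, and 12.5% of ATAC reads were mitochondrial. The low-RNA nuclei, pooled the same way, had 40.5%, 47.8%, 33.6% and 3.53%, and the high-RNA nuclei 47.2%, 45.5%, 31.1% and 2.54%. Nearest to the members were 1449 uncalled barcodes with no exclusion code, at least 100 UMIs and at least 1000 fragments, all of them under 1000 UMIs. Their medians were 149 UMIs, 1322 fragments, 21.4% intronic UMIs, 32.03% of fragments in peaks, 11.9% mitochondrial reads and 58.8% intergenic among mapped RNA reads. On intronic UMIs, peaks and mitochondrial reads the median low-RNA nucleus lay nearer to the high-RNA nuclei than to these barcodes. The call itself separated these sets, and all called nuclei under 250 UMIs had at least 1516 cut sites in peaks. Nearness to the high-RNA nuclei in peaks is therefore not independent of the call. On the intergenic share, its 47.3% lay nearer to the 58.8% of the uncalled barcodes than to the 29.6% of the high-RNA nuclei. How much free RNA each nucleus holds was not measured.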

How the data were processed

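RNA and ATAC were read from the same nuclei; 10000 nuclei per sample were aimed for, per the labels' protocols. The authors ran cellranger-arc 2.0.2 on mm10, per the file headers. Deposited for each barcode are raw counts of reads, UMIs, genes and fragments, with a mark for called nuclei; for nucleus calling, exclusion codes and doublets the settings are not stated in the labels or headers. In every barcode, exonic and intronic UMIs added up to the UMI count. Called knockout nuclei held 105212633 RNA reads and 149177319 ATAC reads.

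Shares were computed per nucleus from these counts and summarised as medians with quartiles. Mitochondrial reads were divided by all ATAC reads of a barcode. Matching used deciles of called nuclei by fragments, and was tried on simulated shares with the same shift in all low-RNA nuclei. That setting is simpler than the data, where the differences at start sites and in peaks changed sign between deciles. The simulation therefore does not bear on the values averaged over such deciles. Intervals of shares of nuclei are exact (Clopper-Pearson). The counting spread of a difference or ratio of medians ran between opposite ends of both groups' 95% rank intervals. This is wider than a 95% interval of the difference itself, so fewer recomputed values count as moved. For rho the spread was a 95% interval from Fisher's z over nuclei. No doublet caller was run. The rule for named genes was Mertk and the listed cell type markers, for a check of the tissue label. The limit, the measures and the lists were chosen with earlier results of these data known. Scripts ran in Python 3.11.15 with matplotlib 3.10.9, scipy 1.17.1, pandas 2.3.3 and numpy 2.4.6.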

Additional observations from a re-analysis of the deposited data

Results flagged for a closer look

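The same limit of 1000 UMIs in the wild-type library gave differences of the opposite sign for 2 measures when nuclei were not matched on fragments. Fragments at start sites were 3.26 percentage points higher in knockout nuclei under the limit, while in the wild-type library the difference was -3.51 points (medians of 23.8% in 373 nuclei and 27.3% in 5455). For fragments in peaks the differences were 1.39 points in the knockout and -7.38 points in the wild-type library (27.5% and 34.8%), each counted in the library's own peaks. Within deciles of fragments, set in each library by itself, the contrast in sign was gone for peaks, and at start sites the contrast was smaller. For peaks both differences were negative, -2.70 points in the knockout and -2.21 in the wild-type library over the 9 deciles that held wild-type nuclei under the limit. At start sites they were 0.77 and -0.06 points, with 4 wild-type deciles higher and 5 lower under the limit. Each decile counted equally, also those with only 8 or 4 wild-type nuclei under the limit. Over the 5 wild-type deciles with at least 20 such nuclei the differences were -2.25 points at start sites and -4.61 in peaks. Over the knockout deciles with at least 20 low-RNA nuclei they were 0.62 and -3.47, so at start sites the signs still differed. These differences between libraries were not tested, since each genotype has 1 library.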

How the results depend on the processing

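No paired analysis was possible because the knockout has 1 library per assay, so no replicate could be left out either. Over 66 recomputed knockout values, 41 stayed within their counting spread, 23 moved and 2 changed sign, and the cause was not tested for any of these. The share of low-RNA nuclei was 39.2% at a limit of 750 UMIs, 48.5% at 1122 UMIs (the lowest point of the histogram), 55.03% at 1500, 62.9% over barcodes with at least 100 UMIs and 1000 fragments whether called or not, and 41.9% with at least 3000 cut sites in peaks. The fragment ratio was 0.314 from means and 0.451 with 3000 cut sites. The intronic difference was -2.43 points over all reads in genes. The start-site difference was 2.37 points at 1500 UMIs, 3.88 at 750, 0.77 within deciles of fragments, 0.62 within deciles holding at least 20 low-RNA nuclei, 2.54 pooled and 3.72 with 3000 cut sites. The peak difference was 0.26 points at 1500 UMIs, 2.62 at 750, 2.23 pooled and 2.42 with 3000 cut sites, and changed sign within deciles, to -2.70 over all deciles and -3.47 over those with at least 20 low-RNA nuclei. The mitochondrial difference was 0.82 points with 3000 cut sites. The rank correlation of UMIs and fragments was 0.72 over barcodes called or not, 0.43 without the 5% of nuclei with the most UMIs and 0.56 with 3000 cut sites, and Pearson's r of log10 values was 0.43. Chosen after seeing the data were the settings with 3000 cut sites, the deciles with at least 20 low-RNA nuclei, the intronic share of sense reads, the intronic share within deciles, the setting without shared barcodes and all wild-type values within deciles. Leaving out the 44 barcodes called in both libraries moved none of the 7 results beyond its counting spread.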

Other observations

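Wild-type nuclei under 1000 UMIs were few and unlike the low-RNA knockout nuclei in more than number. Their median intronic share was 22.7%, against 40.8% in the knockout library. An intronic share under 20% was found in 149 of 373 (39.9%, interval 34.9% to 45.1%). At or above the limit, 817 of 5455 wild-type nuclei (14.98%) also had such a share, against 18 of 2889 knockout nuclei (0.623%). Intronic shares under 20% were therefore more frequent in the wild-type library on both sides of the limit. The mitochondrial share of wild-type nuclei under the limit was 1.01%, against 0.924% at or above it, so the libraries differ in that gap as well. A share over 5% was found in 3 of 373 (0.804%) under and 558 of 5455 (10.2%) at or above the limit. Within wild-type deciles of fragments, the median under the limit was lower in deciles 1 to 7, as with 1.25% against 3.67% in decile 2. It was higher in deciles 8 and 9, which held 8 and 4 nuclei under the limit. Intergenic reads per 1000 fragments were 324.6 under and 755.5 at or above the limit in the wild-type library, so the near-equal values of the knockout groups were not found there.

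Barcodes that carry an exclusion code were a further set in the knockout library. With at least 100 UMIs and 1000 fragments there were 975, of which 928 had under 1000 UMIs. Their medians were 9.94% of fragments at start sites, 10.7% in peaks and 18.03% intronic UMIs.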
